A study of Homo sapiens and Mus musculus with 33 samples.

Results

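The cytosolic ribosomal proteins are the protein components of the 40S and 60S ribosomal subunits. They were taken by gene symbol: RPL or RPS followed by a number, with RPSA and the stalk proteins RPLP0, RPLP1 and RPLP2, and without Y-linked genes. The rule gave 84 of 36591 genes in the human feature table (46 large-subunit proteins, 31 small-subunit proteins and 7 paralogs), and 83 of 32245 genes in the mouse table. In bulk tables, which name no genes, the same 84 genes were found by their GRCh38 position. The study compared newly made and existing RNA by metabolic labelling with 4-thiouridine (4sU), a uridine analogue that is read as a T-to-C conversion after treatment with iodoacetamide (IAA).

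Bulk SLAM-seq libraries came from Jurkat cells, clone E6-1, a human T cell leukaemia line. They comprised 3 libraries with 50 nM CPT, 3 with 1 µM ETO and 3 controls, all labelled with 4sU at a dose not given. CPT and ETO are taken here as camptothecin and etoposide, which trap topoisomerases on DNA; the labels give the abbreviations alone. Single-cell libraries of 4sU-labelled Jurkat cells were stimulated with PMA and ionomycin (2 libraries, clone name E6-2) or given DMSO (2 libraries, clone name E6-1), and 1 library of each kind is called rep1. Single-cell libraries of eHAP cells, a human line, comprised 1 made after methanol fixation and IAA with 4sU, 1 made by NOTE-seq (formaldehyde fixation) with 4sU, and 1 made with the standard 10x kit without 4sU. Mouse lymph-node T cells, described as naive, gave 1 NOTE-seq library each at 0, 2, 4, 6 and 8 h of anti-CD3 and anti-CD28 stimulation with 4sU, and 1 library without 4sU whose time is not given. Further single libraries came from 4sU-labelled cells called K562, with and without IAA, and from a mixture of Jurkat and mouse NIH3T3 cells without 4sU.

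Ribosomal protein genes are among the most highly transcribed genes of dividing cells, and their mRNAs are known to be long-lived. Most of these mRNAs begin with a C followed by an unbroken run of pyrimidines, the terminal oligopyrimidine (TOP) tract, through which the kinase mTOR and the RNA-binding protein LARP1 control their translation as nutrients and growth signals change. Several members have other known roles: RPL5 and RPL11 bind MDM2 when ribosome assembly is disturbed, and RPS6 is phosphorylated by S6 kinases.

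The letters around the annotated transcription start are shown for members that the results below turn on, because most core members have the tract and most of their paralogs do not. Each window runs 15 bases to either side of the start in RefSeq's promoter table (build GRCh38.p14), written 5′ to 3′ on the gene's strand. Capitals mark a C with at least 5 pyrimidines after it that begins within 5 bases of the start, and windows in lower case hold no such run.
RPL41, chr12:56116618-56116647, plus strand: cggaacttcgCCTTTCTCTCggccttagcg
RPLP2, chr11:809952-809981, plus strand: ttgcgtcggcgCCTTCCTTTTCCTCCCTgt
RPS6, chr9:19380222-19380251, minus strand: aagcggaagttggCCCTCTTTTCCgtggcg
RPS24, chr10:78033848-78033877, plus strand: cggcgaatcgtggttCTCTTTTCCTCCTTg
RPL26, chr17:8383179-8383208, minus strand: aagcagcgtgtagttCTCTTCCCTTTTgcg
RPL26L1, chr5:172958714-172958743, plus strand: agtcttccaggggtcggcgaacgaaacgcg
RPS27, chr1:153990747-153990776, plus strand: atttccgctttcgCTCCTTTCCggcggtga
RPS27L, chr15:63157463-63157492, minus strand: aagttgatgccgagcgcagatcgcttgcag
RPL22, chr1:6199581-6199610, minus strand: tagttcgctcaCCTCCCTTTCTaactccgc
RPL22L1, chr3:170870181-170870210, minus strand: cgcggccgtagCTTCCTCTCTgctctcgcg
RPL7L1, chr6:42879601-42879630, plus strand: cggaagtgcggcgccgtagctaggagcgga

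The promoter table held 67 of the 84 members. A pyrimidine run at an annotated start was found in 53 of them (79.1%), against 3751 of 27305 genes in the whole table (13.7%). It was present in 52 of 62 core members and in 1 of 5 paralogs, RPL22L1. The letters CTTT began in the same window, on the transcribed strand, in 40 members (59.7%), against 7.94% of all genes, and mostly lay inside the run. Other TOP and translation genes had the run in 13 of 15 cases, genes of ribosome biogenesis in 4 of 27 and mitochondrial ribosomal proteins in 4 of 69. The first of these lists was drawn up to hold TOP genes, so its count follows in part from that choice.

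SLAM-seq libraries held between 19049329 and 40839684 reads. These reads come from the 3′ end of mRNAs, and those of 27 members mapped to several places in over 50% of cases, so that counts of these members may include reads of processed pseudogenes. T cell markers summed to 1452 to 3194 CPM in the Jurkat cells and 1648 to 3097 CPM in mouse T cells. Both libraries called K562 went against that label: the summed level of 8 erythroid markers was 1.78 CPM with IAA and 0 without, with HBE1, HBG1 and HBG2 at 0, while myeloid markers, led by LYZ, reached 263 CPM with IAA and 224 CPM without. The myeloid marker CD14 was at 0 in both. T cell markers summed to 37.5 CPM with IAA and 58.8 CPM without, and B cell markers to 36.7 CPM with IAA and 31.7 CPM without. Both libraries are called the K562-labelled libraries below. In Jurkat single cells, the 2 libraries called rep1 (set 1) and the 2 without a number (set 2) differed far more from each other than the treatments did, as given below. No pair of single-cell libraries shared more than 6 cell barcodes.

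In control Jurkat cells, ribosomal protein RNA carried little label. The labelled share, the percentage of a gene's reads in which slamdunk counted a T-to-C conversion, had a median of 0.304% over the 82 members that had 100 or more reads per control library, against 2.59% over 10675 genes. All 46 large-subunit (median 0.296%) and all 31 small-subunit members (median 0.293%) lay below the median of all genes. The 2 members above it were the paralogs RPL22L1 and RPL26L1. These shares were not tested between members, and conversions at an unlabelled T were not measured in these cells, so the lowest values may be close to sequencing error. Reads of members covered a median of 14.7 T positions, against 26.7 for all genes. Counted per covered T, the median conversion rate was 0.0318% in members and 0.223% in all genes.

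The lowest labelled share belonged to RPL35, with 0.0366%, 0.0874% and 0.0638% in the 3 control libraries from 41013 or more reads in each. RPL36 followed with 0.0446%, 0.0803% and 0.0705%. Also low were RPS19 and RPS27. RPS19, the gene most often mutated in Diamond-Blackfan anaemia, had 0.0796%, 0.0765% and 0.0974%, and RPS27 had 0.0598%, 0.0605% and 0.141%. The ranges of these 4 members overlapped, and RPS27 rested on 7, 8 and 24 converted reads. Among core members the highest were RPS25, needed for translation from internal entry sites (1.16%, 1.24% and 0.863%), and RPL15, an early-assembling large-subunit protein (0.841%, 0.812% and 0.822%). The ranges of RPS25 and RPL15 did not overlap, but 97.4% of the reads of RPS25 mapped to several places, against 7.27% for RPL15.

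Most other members stood close together. The stalk proteins RPLP0, RPLP1 and RPLP2, which recruit translation factors, had 0.344% ± 0.016, 0.240% ± 0.032 and 0.288% ± 0.0079 (SD, n = 3). RPL5 and RPL11, which travel with the 5S rRNA, had 0.308% ± 0.013 and 0.310% ± 0.026, a difference smaller than their spread. RPL3 and RPL10, which lie near the peptidyl transferase centre, had 0.257% ± 0.019 and 0.262% ± 0.039. On the small subunit, RPSA, also known as the laminin receptor, had 0.307% ± 0.015 and RPS6 0.338% ± 0.041. RPS3, which contacts mRNA at its entry and has a role in DNA repair, was lower at 0.195% ± 0.0086. Above them stood RPL41, the smallest ribosomal protein, with 0.437%, 0.475% and 0.455%, and RPS27A, made as a fusion with ubiquitin, with 0.503%, 0.446% and 0.447%.

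**Figure D1:**
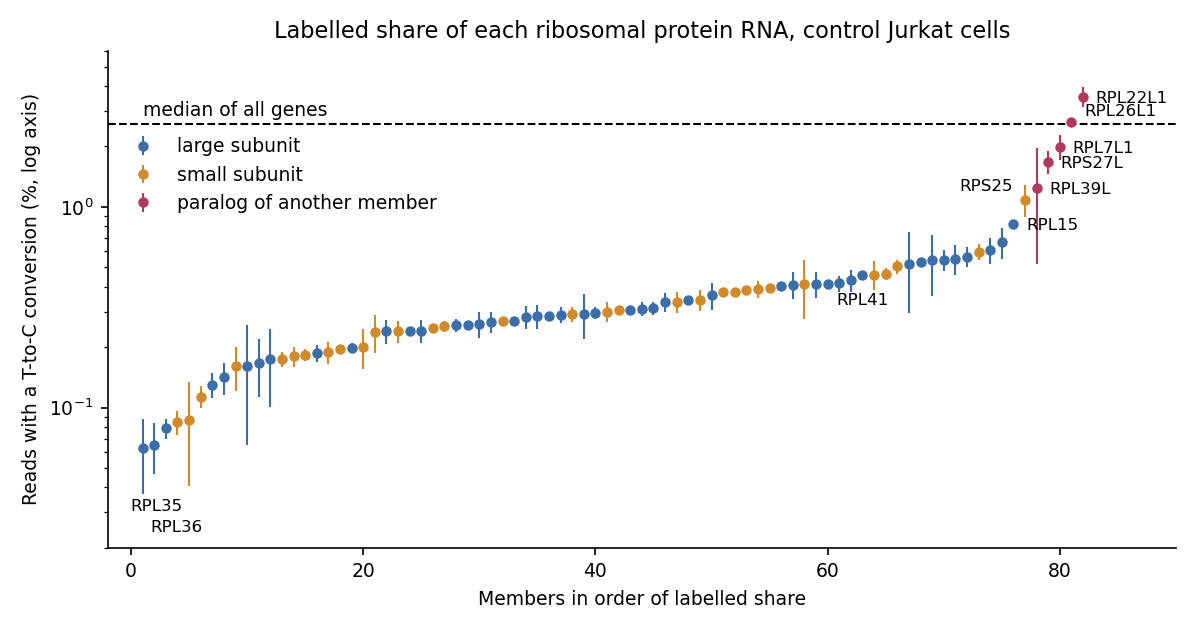
Labelled share (converted reads as % of a gene's reads, log axis) of 82 ribosomal protein genes in control Jurkat SLAM-seq libraries, in order of the mean; points and bars are mean ± SD of 3 libraries, colours give the subunit, and the dashed line is the median of all genes (2.59%). The large and small subunits mix along the order, and the 5 paralogs stand at the top, with RPL22L1 and RPL26L1 above the line.

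Each of 5 paralogs had a higher labelled share than the member it resembles, in every control library. RPL22L1 had 4.00%, 3.44% and 3.21%, against 0.600%, 0.565% and 0.475% for RPL22. RPL26L1 had 2.65%, 2.66% and 2.64%, against 0.326%, 0.266% and 0.259% for RPL26. RPS27L, a known target of p53, had 1.42%, 1.82% and 1.78%, against 0.0598%, 0.0605% and 0.141% for RPS27. The remaining pairs were RPL7L1 (1.99% ± 0.29) against RPL7 (0.541% ± 0.18), and RPL39L (0.883%, 2.08% and 0.775%) against RPL39 (0.424%, 0.450% and 0.374%). Reads of paralogs covered a median of 27.2 T positions and those of core members 14.3, which widens differences in share. Counted per covered T, the median conversion rate was 0.208% in paralogs and 0.0313% in core members. The paralogs were also far less abundant, with 2554 reads per control library for the median paralog and 59222 for the median core member. RPL10L, a testis gene, had no read, and RPL3L, a muscle gene, had too few to be used.

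With the pyrimidine run, the median labelled share was 0.288% (53 members), and without it 0.431% (13 members). Among core members alone, those without the run had a median of 0.301% (10 members). Set beside other translation genes in the same control libraries, members (median 0.304%) stood below the other TOP and translation genes (0.695%, 21 genes), mitochondrial ribosomal proteins (1.57%, 77 genes) and ribosome biogenesis genes (2.56%, 32 genes), the last close to the median of all genes.

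Most ribosomal protein RNAs were lower with CPT relative to other RNA. Total RNA of 62 of the 82 members tested fell and that of 5 rose (edgeR quasi-likelihood test, Benjamini-Hochberg adjusted over 14437 genes), where 27.6% of all genes fell and 25.5% rose. The median log2 fold change was -0.31, against 0.00 for all genes tested. Falls were found on both subunits (37 of 46 large, 21 of 31 small) and in 4 of 5 paralogs. They were found as well among the 55 members with at most 50% multimapped reads, of which 40 fell. These levels are shares of each library, so less ribosomal protein RNA per cell and more of other RNA cannot be told apart.

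The largest fall was that of RPL26, which lies beside the peptide exit tunnel. It had 1964, 1969 and 1926 CPM with CPT, against 3985, 3626 and 3836 CPM in controls, a log2 fold change of -0.94 ± 0.04 (SE; adjusted p = 1.45e-13). RPL7A, a large-subunit protein, fell to 1333, 1363 and 1310 CPM with CPT, against 2492, 2449 and 2455 CPM in controls (log2 fold change -0.86 ± 0.04), although 99.9% of its reads were multimapped. RPL5 had 1342, 1300 and 1291 CPM with CPT, against 2188, 2226 and 2298 CPM in controls (-0.74 ± 0.04). RPS23, a protein of the decoding centre, had 2787, 2848 and 2833 CPM with CPT, against 5059, 4809 and 4588 CPM in controls (-0.74 ± 0.04). The groups did not overlap for any of these 4 genes.

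Among the other members named here, falls were smaller. RPL3 had a log2 fold change of -0.72 ± 0.06, RPL10 of -0.44 ± 0.05, RPS6 of -0.31 ± 0.05, RPSA of -0.29 ± 0.05 and RPL11 of -0.20 ± 0.06. Of the stalk, RPLP2 fell (-0.34 ± 0.06), RPLP1 rose (0.21 ± 0.05) and RPLP0 missed the threshold (-0.10 ± 0.04). RPS3 had 0.12 ± 0.11. The 4 risers with the smallest p were RPL23A, at the exit tunnel, RPS13, RPLP1 and RPS10, at the mRNA entry. RPL23A had 201, 209 and 184 CPM with CPT, against 125, 139 and 154 CPM in controls (log2 fold change 0.54 ± 0.07), without overlap. RPS13 (0.33 ± 0.08, with 98.8% of reads multimapped), RPLP1 and RPS10 (0.17 ± 0.06) overlapped between the groups.

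ETO gave a similar count in total RNA, with 57 members lower and 5 higher (19.9% and 18.9% of all genes), and a median log2 fold change of -0.26, against 0.01 for all genes. RPL5 had 1470, 1431 and 1449 CPM with ETO, against 2188, 2226 and 2298 CPM in controls (-0.61 ± 0.04; adjusted p = 3.23e-10). RPL26 had 2388, 2519 and 2447 CPM with ETO, against 3985, 3626 and 3836 CPM in controls (-0.63 ± 0.04). RPL7A (-0.58 ± 0.04) and RPS24, another Diamond-Blackfan gene (-0.49 ± 0.04), completed the 4 falls with the smallest p, and none of the 4 overlapped with controls. RPL23A rose (0.47 ± 0.07; 206, 183 and 185 CPM with ETO, against 125, 139 and 154 CPM in controls), as did RPS10 (0.25 ± 0.06) and RPL36A (0.21 ± 0.07). Of the paralogs 1 of 5 fell, RPL39L (-0.28 ± 0.09). Both compounds were set against the same 3 control libraries: 54 members fell and 3 rose in both comparisons. Shared controls raise such an overlap for any gene, and the share of all genes was not counted, so the overlap describes members alone.

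Tested directly against each other at their 1 dose each, CPT left lower total RNA than ETO in 27 members and higher in 1 (18.5% and 16.3% of all genes), with a median log2 fold change of -0.06. RPL14, a large-subunit protein, had 1521, 1573 and 1523 CPM with CPT, against 1992, 2035 and 1950 CPM with ETO (-0.36 ± 0.04; adjusted p = 1.21e-06). RPS23 (-0.33 ± 0.04), RPL26 (-0.31 ± 0.04) and RPL7A (-0.28 ± 0.04) were lower with CPT as well, without overlap. RPS27 was the 1 member higher with CPT, at 419, 417 and 436 CPM, against 381, 350 and 333 CPM with ETO (0.27 ± 0.07). RPS6 (-0.21 ± 0.05) and RPS27A (-0.24 ± 0.05) were lower with CPT than with ETO. Among the paralog pairs, RPL22L1 was lower with CPT than with ETO (-0.37 ± 0.08), and so were RPL26L1 (-0.39 ± 0.08), RPL39L (-0.24 ± 0.09) and RPL7L1 (-0.19 ± 0.06). RPS27L had -0.06 ± 0.10, an estimate within its error.

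Other lists of the pathway are read against the same shares of all genes (27.6% fell and 25.5% rose with CPT, and 19.9% fell and 18.9% rose with ETO), and no difference between lists was tested. Of 21 other TOP and translation genes tested for total RNA, 16 fell and 3 rose with CPT, and 15 fell and 2 rose with ETO. Elongation factors were among them: EEF2 had log2 fold changes of -0.64 with CPT and -0.51 with ETO, and EEF1A1 of -0.43 with CPT and -0.50 with ETO. Of 32 ribosome biogenesis genes, 21 fell and 2 rose with CPT, whereas 3 fell and 15 rose with ETO. RRP12, needed for subunit export, rose with both (0.77 with CPT and 0.90 with ETO), and RRS1, an assembly factor of the large subunit, fell with both (-1.07 with CPT and -0.35 with ETO). Tested against each other, CPT was lower than ETO in 26 of the 32. Of 77 mitochondrial ribosomal proteins, 41 fell and 11 rose with CPT, and 20 fell and 19 rose with ETO, the last pair near the shares of all genes.

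**Figure D2:**
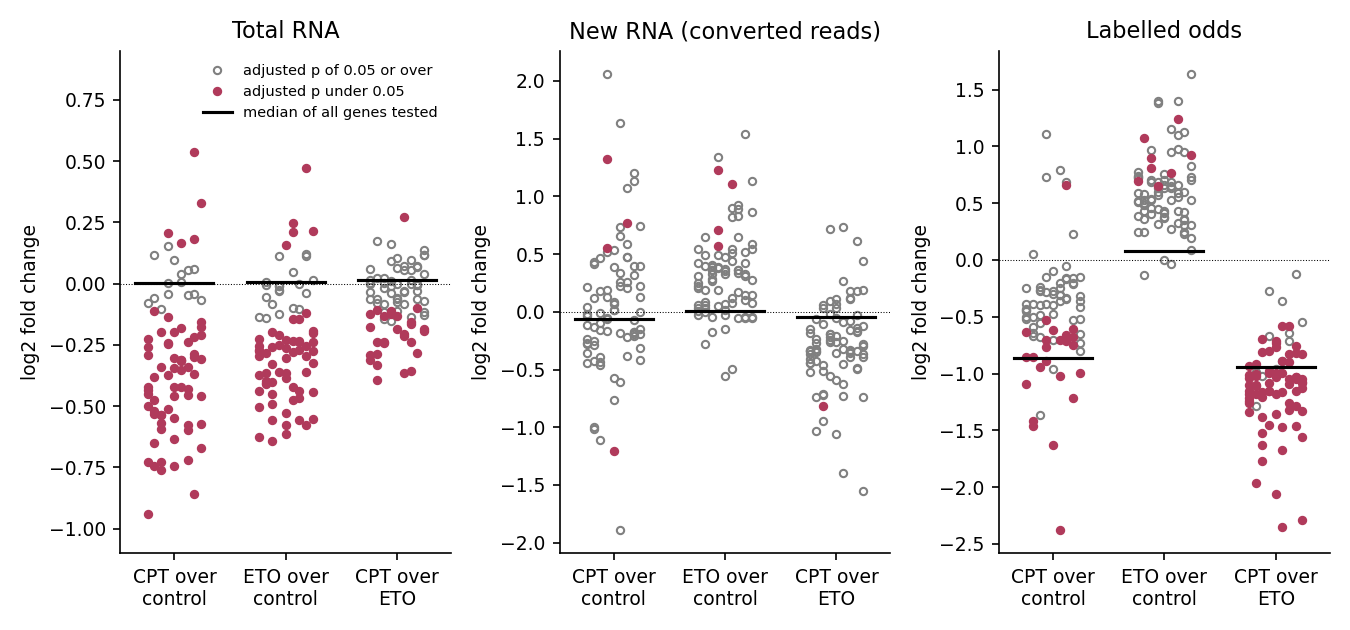
Log2 fold change of each of 82 ribosomal protein genes (points) in total RNA, in new RNA (converted reads) and in labelled odds, for CPT over control, ETO over control and CPT over ETO; filled points have an adjusted p under 0.05 (edgeR quasi-likelihood test), and black bars are the median of all genes tested. Total RNA lies mostly below 0 for both compounds against control, with 62 and 57 falls, and the labelled odds lie below 0 for every member in CPT over ETO.

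Newly made RNA was counted as converted reads, scaled among converted reads. Here members stayed near other genes with CPT: 3 rose and 1 fell of 82 (3.6% and 2.79% of 9035 genes), with a median log2 fold change of -0.01, against -0.06 for all genes. RPL41 had 3952, 3243 and 3823 CPM of converted reads with CPT, against 2511, 2772 and 2578 in controls (0.55 ± 0.09; adjusted p = 2.59e-04). RPS25 had 233, 193 and 161 with CPT, against 83.6, 86.4 and 75.2 in controls (1.32 ± 0.29), and RPL3 had 288, 314 and 348 with CPT, against 191, 183 and 206 in controls (0.77 ± 0.21). RPL28, a large-subunit protein, fell to 42.7, 75.9 and 97.5 with CPT, against 187, 177 and 157 in controls (-1.21 ± 0.32). None of these 4 genes overlapped between the groups, and the reads of the 3 risers were multimapped in over 95% of cases. Scaled by all reads instead, 0 members rose and 53 fell, and the estimates for RPL41 (-0.31) and RPL3 (-0.087) turned negative. That scaling keeps the lower label of all genes with CPT, whose labelled share of all reads was 0.613 of control. The share of all genes that fell under this scaling is not given, so these falls alone do not set members apart from other genes. The count was 11 without CPT replicate 1, 8 without CPT replicate 3 and 2 without any 1 of the controls. RPL3 and RPL28 lost their calls without some libraries.

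With ETO, 4 members rose and 0 fell in new RNA (1.23% and 0.742% of all genes), and 68 of 82 had a positive log2 fold change, with a median of 0.32 against 0.00 for all genes. RPL41 had 4038, 3480 and 4031 CPM of converted reads with ETO, against 2511, 2772 and 2578 in controls (0.57 ± 0.09; adjusted p = 2.16e-04). RPS25 (1.23 ± 0.27), RPL36A (1.11 ± 0.25) and RPLP1 (0.71 ± 0.17) rose as well, and none of the 4 overlapped with controls. Of these 4 members, 3 were among the 27 with over 50% of reads multimapped. Leaving out any 1 ETO or control library left 1 or 2 calls, whereas DESeq2 called 14 members and a fit on ETO and control libraries alone called 21, all higher with ETO. The shares of all genes given here belong to the main fit, so 14 and 21 cannot be set against them. CPT against ETO gave 0 higher and 1 lower (1.02% and 1.08% of all genes). With library sizes from all reads 0 were higher and 73 lower, where the labelled share of all reads with CPT was itself 0.567 of that with ETO. In the main fit the 1 lower member, RPS3A, had 315, 476 and 301 with CPT, against 663, 568 and 769 with ETO (-0.82 ± 0.18). Without each CPT library in turn 4 members were lower with CPT, and without ETO replicate 3 none was; RPS3A lost its call without ETO replicate 1 or 3. Of the paralogs none passed in new RNA, and their errors were wide, as for RPS27L (1.13 ± 0.57 with CPT and 0.52 ± 0.54 with ETO).

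Pooled over all members, the labelled share was 0.220%, 0.227% and 0.223% with CPT, 0.455%, 0.445% and 0.465% with ETO, and 0.315%, 0.307% and 0.303% in controls. The 3 groups did not overlap, with CPT lowest and ETO highest. The ratio of means was 0.724 for CPT over control, 1.48 for ETO over control and 0.490 for CPT over ETO. Each 2-sided exact permutation test gave p = 0.1, the smallest that 3 against 3 libraries allow. Over the reads of all genes the share was 1.22% ± 0.011 with CPT, 2.16% ± 0.0055 with ETO and 2.00% ± 0.048 in controls (SD, n = 3), giving ratios of 0.613 for CPT over control, 1.08 for ETO over control and 0.567 for CPT over ETO. Members made up 13.5% ± 0.32 of all reads with CPT, 14.0% ± 0.11 with ETO and 15.7% ± 0.40 in controls. Of converted reads they made up 2.47% ± 0.059 with CPT, 2.95% ± 0.094 with ETO and 2.43% ± 0.071 in controls.

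**Figure D3:**
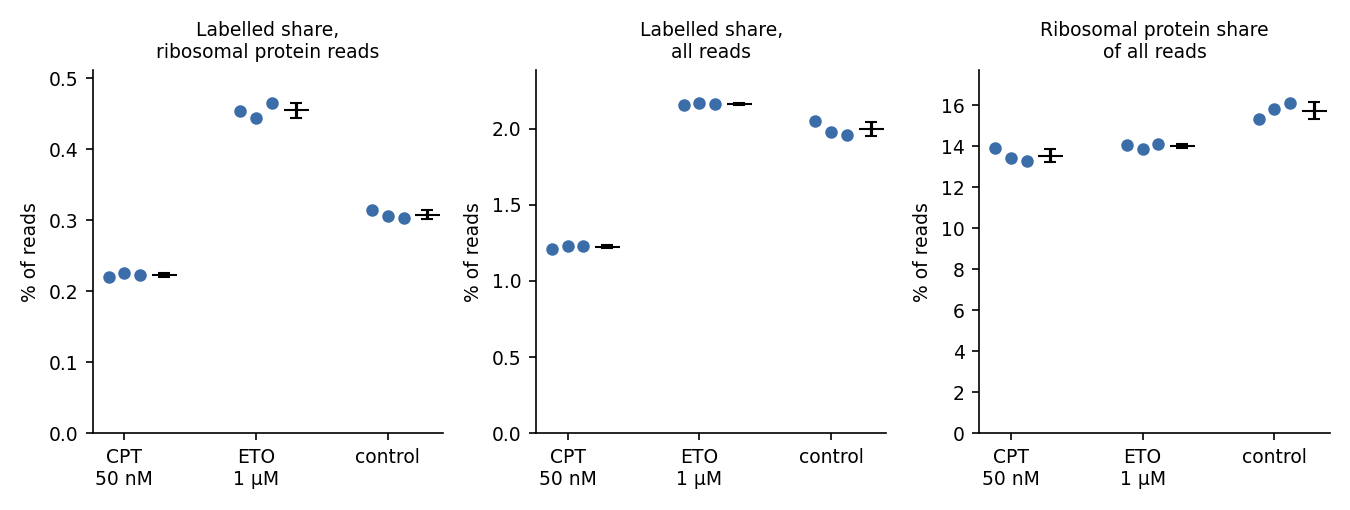
Labelled share of ribosomal protein reads, labelled share of all reads, and ribosomal protein share of all reads (each in % of reads) in 3 CPT, 3 ETO and 3 control Jurkat libraries; points are libraries and black marks with bars are mean ± SD. The ribosomal protein labelled share is lowest with CPT (0.223%), highest with ETO (0.455%) and between them in controls (0.308%), while their share of all reads is highest in controls (15.7%).

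The labelled odds, converted against other reads of a gene within each library, fell with CPT in 23 members and rose in 1, where 24.5% of 9035 genes fell and 0.188% rose. The members' median log2 fold change was -0.46 and that of all genes -0.87. RPS29, a zinc-binding protein of the small subunit, had a labelled share of 0.149%, 0.0951% and 0.118% with CPT, against 0.274%, 0.244% and 0.246% in controls (log2 odds change -1.09 ± 0.15; adjusted p = 0.00348). RPS27A (-0.71 ± 0.11) and RPL28 (-1.63 ± 0.24) fell too, and none of these 3 overlapped with controls. RPL3 was the exception, with 0.397%, 0.3997% and 0.420% with CPT, against 0.247%, 0.245% and 0.279% in controls (0.66 ± 0.16). It was among the 27 members with over 50% of reads multimapped. RPL26L1 (-1.42 ± 0.47) and RPL7L1 (-0.99 ± 0.30) were the paralogs that fell. Calls numbered 10, 13 and 11 without control replicates 1, 2 and 3, and RPL3 lost its call without the first or the second.

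With ETO, the labelled odds rose in 8 members and fell in 0 (0.432% and 0.0443% of all genes). Of the 8 risers, 3 were among the 27 members with over 50% of reads multimapped, and 5 among the other 55. The median log2 change of all members was 0.59, against 0.08 for all genes, and the change was positive in 79 of 82. RPL3 had 0.730%, 0.587% and 0.520% with ETO, against 0.247%, 0.245% and 0.279% in controls (1.24 ± 0.15; adjusted p = 0.00291). RPL31, on the rim of the exit tunnel, had 0.814%, 0.775% and 0.729% with ETO, against 0.481%, 0.383% and 0.365% in controls (0.93 ± 0.15). RPS24 (0.89 ± 0.15) and RPL41 (0.65 ± 0.10) completed the 4 with the smallest p. None of these overlapped with controls, and each lost its call without at least 1 library: with 1 library left out, 0 to 3 members passed, and none did without control replicate 2. Fitted on ETO and control libraries alone, 41 members rose, but the shares of all genes above belong to the main fit and not to that one. The number of calls therefore depended on the fit, while no member passed in the other direction in any of these fits.

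Between the compounds the difference was broad: labelled odds were lower with CPT than with ETO in 70 of 82 members and higher in 0 (32.2% and 0.0443% of all genes). The members' median was -1.06, against -0.94 for all genes. RPS27A had 0.265%, 0.317% and 0.271% with CPT, against 0.559%, 0.563% and 0.629% with ETO (-1.04 ± 0.11; adjusted p = 5.69e-04). RPS3A (-1.63 ± 0.17) and RPL13A, known as part of an inhibitor of interferon-induced translation (-1.47 ± 0.16), followed by p. None of these 3 overlapped between CPT and ETO libraries. Of the stalk and the assembly-linked members, RPLP0 had -0.81 ± 0.15, RPLP2 -0.73 ± 0.14, RPL5 -1.36 ± 0.27 and RPS6 -0.999 ± 0.14, all past the threshold, whereas RPL11 (-1.02 ± 0.43) was not. Of the paralogs 1 of 5 passed, RPL7L1 (-1.08 ± 0.30).

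In eHAP cells the methanol library stood apart in ribosomal protein RNA. Members made up 36.1% of UMIs in the methanol library, 15.9% in the NOTE-seq library and 15.6% in the standard 10x library. Exact binomial 95% intervals, which cover counting error only, ran from 15.84 to 15.87% for NOTE-seq and from 15.56 to 15.58% for 10x, and with 1 library per protocol no test was made. Methanol barcodes held a median of 11229 UMIs from 2404 genes, NOTE-seq barcodes 9322.5 UMIs from 4118.5 genes and 10x barcodes 18022 UMIs from 5549 genes, so the methanol library spread its UMIs over fewer genes. The methanol and NOTE-seq libraries both had 4sU and differ in fixation and protocol. Against the 10x library, protocol, 4sU and IAA differ together and cannot be told apart. Each protocol is 1 library, and the methanol share was 2.32 times the 10x share, whereas Jurkat libraries of the same treatment differed 2.78-fold (stimulated) and 2.66-fold (unstimulated) between sets.

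Of 82 members with at least 100 UMIs in the methanol and 10x pair, 76 were higher in the methanol library, 53 of them at least 2-fold, where 3.49% of all genes were that much higher and 62.9% that much lower. The members' median log2 ratio of CPM was 1.13 and that of all genes -1.47. RPS29 had 6037 CPM in the methanol library and 486 CPM in the 10x library (log2 ratio 3.63). RPL38, which shapes translation of Hox mRNAs in mice, had 2931 CPM in the methanol library and 325 CPM in the 10x library (3.17). RPL37 had 5625 CPM in the methanol library and 774 CPM in the 10x library (2.86), and RPL39, at the exit tunnel, 11125 CPM in the methanol library and 1693 CPM in the 10x library (2.72). At the other end, RPL7L1 had 110 CPM in the methanol library and 219 CPM in the 10x library (-0.999), and RPL4, RPS2 and RPL3 had log2 ratios of -0.39, -0.21 and -0.18. Ribosome biogenesis genes were lower in the methanol library in 29 of 32 cases (median -1.19), as were 11994 of 14142 genes in all (median -1.47). Set against NOTE-seq, 75 members were higher in the methanol library, 50 of them at least 2-fold (5.23% of all genes), and 2 were at least 2-fold lower (69.5%).

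NOTE-seq and 10x gave almost the same total share. Single members differed in both directions, and at least 2-fold differences were about as common as among all genes. Their median log2 ratio was 0.02, with 42 members higher and 40 lower, 15 and 6 of them at least 2-fold (17.3% and 6.49% of all genes). RPS29 had 2853 CPM by NOTE-seq and 486 CPM by 10x (2.55), RPL38 1628 CPM by NOTE-seq and 325 CPM by 10x (2.32), and RPL31 1306 CPM by NOTE-seq and 278 CPM by 10x (2.23). RPL37A followed with a log2 ratio of 1.43. RPS4X, the X-linked copy of RPS4, had 1642 CPM by NOTE-seq and 4110 CPM by 10x (-1.32), and RPS7 1383 CPM by NOTE-seq and 3233 CPM by 10x (-1.23). RPL7A and RPS13 had log2 ratios of -1.16 each. RPS29 and RPL38 were thus the highest by both fixed-cell protocols, which share the 10x library as their comparison.

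**Figure D4:**
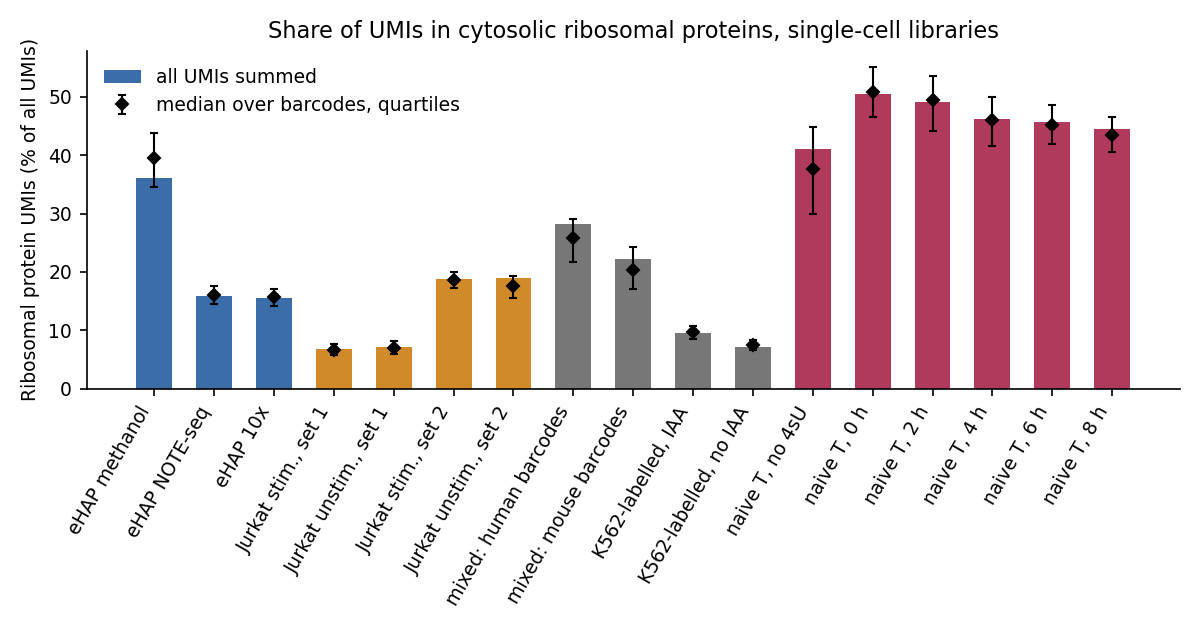
Share of UMIs in cytosolic ribosomal proteins (%) in each single-cell library; bars give all UMIs summed, coloured by cell source, and diamonds with lines give the median and quartiles over barcodes. The methanol library (36.1%) stands above the other eHAP libraries (15.9% and 15.6%), Jurkat libraries fall into 2 sets (6.78% and 7.12% in set 1, 18.9% and 19.0% in set 2), and mouse T cells reach 50.5% at 0 h.

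Stimulated and unstimulated Jurkat cells did not differ detectably in ribosomal protein RNA. The clone name changes with the treatment in these libraries, so stimulation and clone cannot be told apart. Members made up 6.78% of UMIs in stimulated and 7.12% in unstimulated cells of set 1, and 18.9% in stimulated and 19.0% in unstimulated cells of set 2 (2-sided exact permutation p = 0.667, where the smallest possible is 0.333). Over summed UMIs, 0 of 83 members and 0 of 19094 genes (0.0%) passed edgeR's quasi-likelihood test. At an unadjusted p under 0.05 there were 0 members and 217 genes, and DESeq2 called 0 members and 49 genes. Neither test takes account of the sets, whose member shares differed 2.78-fold in stimulated and 2.66-fold in unstimulated cells. With the set as a replicate block, 2060 genes and 0 members passed. Within set 1 the members' median log2 ratio of stimulated over unstimulated CPM was -0.07 (6 higher, 76 lower), and within set 2 it was 0.01 (43 higher, 39 lower). No member reached a 2-fold difference in either set, which 3.0% of all genes did upward and 0.776% downward in set 1, and 2.03% and 0.614% in set 2. Leaving out 1 library left the sets unequal, and the members' median log2 fold change in the fit then lay between -1.15 and 1.15, with 0 members called each time.

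RPL22L1 was the highest member in both sets, with 17.6 CPM in stimulated and 15.9 CPM in unstimulated cells of set 1 (log2 ratio 0.15), and 57.6 CPM in stimulated and 42.9 CPM in unstimulated cells of set 2 (0.43). RPS26 and RPS28, small-subunit proteins at the mRNA exit, were lowest in set 1 (-0.23 for RPS26) and in set 2 (-0.23 for RPS28). Ribosome biogenesis genes were higher in stimulated cells in 28 of 32 cases in each set, with median log2 ratios of 0.13 in set 1 and 0.17 in set 2. The sets themselves differed widely: in unstimulated cells 79 of 82 members were lower in set 1 than in set 2, 60 of them at least 2-fold, where 13.4% of all genes were and 29.2% were that much higher. In stimulated cells 81 of 82 were lower in set 1, 65 of them at least 2-fold (14.9% of all genes, with 32.0% that much higher). RPL19, a bridge between the subunits, had 417 CPM in unstimulated cells of set 1 and 3644 CPM in those of set 2 (-3.13). RPS19 had 978 CPM in set 1 and 6134 CPM in set 2 (-2.65), and RPS18 556 CPM in set 1 and 3389 CPM in set 2 (-2.61). The exceptions in unstimulated cells, RPS27L, RPS3A and RPL39L, had log2 ratios of 0.19, 0.07 and 0.05.

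In mouse T cells the share of ribosomal protein RNA was lower at each later time of stimulation. It made up 50.5% of UMIs at 0 h, 49.1% at 2 h, 46.1% at 4 h, 45.8% at 6 h and 44.4% at 8 h, and 41.1% in the library without 4sU. These are single libraries with a median of 338 to 659 UMIs per barcode, so no test was made. The members' median log2 ratio to 0 h was -0.05, -0.14, -0.17 and -0.21 at 2, 4, 6 and 8 h. Over the same times the share of ribosome biogenesis genes was 0.125%, 0.340%, 0.636%, 0.671% and 0.706% from 0 to 8 h.

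Some members went against that decline. Rps27l had 75.2, 115, 386, 675 and 888 CPM at 0, 2, 4, 6 and 8 h (log2 ratio 3.56 at 8 h), resting on 55 UMIs at 0 h and 631 at 8 h. Rpl7l1, which assists assembly of the large subunit, had 31.5, 73.8, 159, 169 and 176 CPM (2.48), from 23 UMIs at 0 h. Rps2 had 2991 CPM at 0 h and 6139 CPM at 8 h (1.04), and Rpl41 had 12849 CPM at 0 h and 21036 CPM at 8 h (0.71). In contrast Rps27 had 15265, 12318, 10976, 8304 and 7472 CPM (-1.03), lower at every later time, so that it and its paralog Rps27l ran in opposite directions. Rpl3 had 2261 CPM at 0 h and 1250 CPM at 8 h (-0.86), Rpl13a 10570 CPM at 0 h and 6149 CPM at 8 h (-0.78), and Rps16 9172 CPM at 0 h and 5589 CPM at 8 h (-0.71). The paralog Rpl22l1 followed neither course, with 738, 906, 957, 780 and 704 CPM. Counted among members with at least 100 UMIs over the pair of libraries, 0 were past 2-fold at 2 h (14.6% of all genes higher, 14.8% lower), where Rpl7l1 had too few UMIs to be counted (23 at 0 h and 56 at 2 h). By the same count 2 were higher at 4 h (31.8%, with 21.1% lower), and 2 were higher and 1 lower at 6 h (37.4% and 21.8%). At 8 h, of 80 members, 3 were at least 2-fold higher and 1 lower, against 38.8% and 23.9% of all genes.

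**Figure D5:**
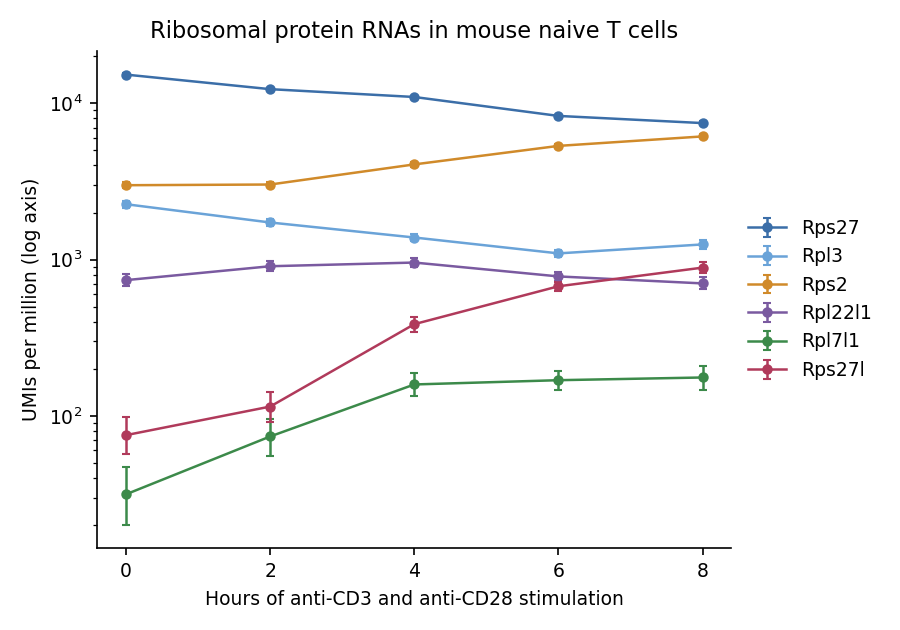
CPM of UMIs (log axis) of 6 ribosomal protein genes in mouse T cells at 0 to 8 h of anti-CD3 and anti-CD28 stimulation, 1 library per time; bars are exact Poisson 95% intervals and cover counting error only. Rps27l (75.2 CPM at 0 h and 888 CPM at 8 h) and Rpl7l1 climb, Rps2 climbs less, Rps27 and Rpl3 decline, and Rpl22l1 ends near its start.

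The library at 0 h with 4sU had a higher ribosomal protein share than the one without 4sU (50.5% at 0 h with 4sU, 41.1% without), and 64 of 79 members were higher, 1 of them at least 2-fold (0.239% of all genes), while none was 2-fold lower (3.27%). That member, Rps15, had 9155 CPM at 0 h with 4sU and 4546 CPM without 4sU (1.01). Rpl39 was the lowest, with 6908 CPM at 0 h and 11497 CPM without 4sU (-0.73). In the K562-labelled libraries the members held 9.53% of UMIs with IAA (1511 barcodes) and 7.19% without (49 barcodes), and 79 of 82 were higher with IAA (median log2 ratio 0.40), none of them 2-fold (2.81% of all genes were 2-fold higher and 1.96% lower). RPS2 had 1071 CPM with IAA and 615 CPM without (0.80), and the 3 members that were lower with IAA were the paralogs RPL7L1 (-0.29), RPL22L1 (-0.26) and RPL39L (-0.26). In the mixture without 4sU, members made up 28.2% of UMIs in 239 human barcodes and 22.3% in 291 mouse barcodes; 56 further barcodes held under 90% of either species and were left out.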

How the data were processed

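Jurkat SLAM-seq tables were deposited as whole-number counts of reads and of converted reads per 3′ UTR, made with slamdunk 0.4.3 on GENCODE V33, per the file headers. Single-cell matrices were deposited as UMI counts from cellranger 7.1.0 or 7.2.0, per the file headers; builds were GRCh38 and mm10, per the submitters' processing notes. Overlapping UTR lines were merged, keeping the line with most reads, and summed per gene by position. Counts were tested with edgeR 4.0.16 (R 4.3.3; quasi-likelihood, filterByExpr, TMM, Benjamini-Hochberg threshold 0.05), with all 9 Jurkat bulk libraries in 1 fit; SE is the fold change over the root of F. For new RNA, library sizes were taken from converted reads alone, and for labelled odds each library had 1 term. Single-cell UMIs were pooled within a library over all deposited barcodes (in the mixture, those of 1 species), with no doublet caller run; DESeq2 1.42.0 was an alternative. Scripts were tested on simulated data. Labels do not say whether replicates were separate cultures, so p-values measure the spread between these libraries. Named genes were a fixed set of members, up to 4 per direction by p, and the extremes of each ratio. Members and lists were chosen with earlier results of these data known. Mouse bulk tables, whose identifiers were not paired with symbols, were not used here. Some members that the naming rule selects are not reported here.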

Additional observations from a re-analysis of the deposited data

How the results depend on the processing

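Total RNA counts kept their side under each alternative run. With 1 library left out, calls numbered 64 to 69 for CPT, 54 to 61 for ETO and 20 to 24 for CPT over ETO; in new RNA 2 to 11, 1 to 2 and 0 to 4; in labelled odds 10 to 31, 0 to 3 and 61 to 69; and 0 in Jurkat single cells. DESeq2 called 12, 14 and 4 members in new RNA for CPT, ETO and CPT over ETO. Fits on the groups compared alone called 21 for ETO and 0 for CPT over ETO in new RNA, and 41 for ETO in labelled odds. Without a filter on low counts, 3 were called in new RNA for CPT over ETO and 25 in labelled odds for ETO. Library sizes from all reads gave 53 for CPT and 73 for CPT over ETO in new RNA, and turned RPL41 (-0.31) and RPL3 (-0.087) negative for CPT. The labelled share of all reads was itself 0.613 for CPT over control and 0.567 for CPT over ETO. UTR lines within 1000 bp of the gene end, an alternative chosen after seeing the data, gave 4 for ETO in labelled odds. Shares of all genes called in these alternative bulk fits are not given, so the counts describe members alone. Of the single-gene values, 986 kept direction and call, 116 lost the call and 2 reversed. The cause was not tested.

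The pooled labelled share without members over 50% multimapped was 0.685 (CPT) and 1.42 (ETO) of control, and by conversions per T position 1.56 (ETO) and 0.471 (CPT over ETO). With 1 library left out it ranged over 0.718 to 0.732, 1.46 to 1.49 and 0.485 to 0.496. The members' median labelled share was 0.117 of the all-gene median; by conversions it was 0.142, with 1000 reads 0.138, without multimapped members 0.112, within 1000 bp 0.120, and with 1 library left out 0.116 to 0.120. Of single-cell share ratios, methanol over 10x was 2.32; it was 2.25 without mitochondrial UMIs, 2.30 without barcodes over 10% mitochondrial and 2.52 as a median over barcodes. NOTE-seq over 10x was 1.02, and 0.992, 1.01 and 1.02 under the same 3 settings, so its direction rested on mitochondrial UMIs. By medians over barcodes, mouse T cells had 0.903, 0.888 and 0.854 at 4, 6 and 8 h over 0 h, 0 h over no 4sU was 1.35 (1.22 without mitochondrial UMIs), and the K562-labelled ratio was 1.30.

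Replicate numbers did not pair the bulk libraries (correlations of deviations of same-numbered libraries -0.03 to 0.04); with the number as a replicate block, calls in total RNA were 67, 61 and 23, in new RNA 4, 3 and 1, and in Jurkat single cells, where libraries of the same set deviated together (r = 0.865) but gave only 2 pairs, 0 members and 2060 genes. Labelled odds already hold a term per library. Few converted reads stand behind paralogs and the lowest labelled shares. With 1 library per condition, eHAP and mouse T cell values have no replicate check.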
